A study of Mus musculus with 14 samples.

Results

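The Setd2KO effect was compared between the 2 stages of male germ cell development that had been sorted from mouse testis, to find the genes whose response to the mutation depended on the stage. For each gene the effect of the mutation was the Setd2KO minus WT difference on the log2(FPKM + 1) scale, and the stage dependence was the effect in round spermatids (RS) minus the effect in pachytene/diplotene spermatocytes (PD). The genes described are the autosomal genes whose group mean reached 1 FPKM or more in any of the 4 groups. They numbered 11084, of 19725 autosomal genes and 20626 genes in all in the tables.

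RS Setd2KO, RS WT, PD Setd2KO and PD WT cells each gave 2 libraries of polyadenylated RNA, so that 8 of the 14 samples of the series carried the RNA comparison. All groups came from adult C57BL/6J testes, and RS and PD cells were separated by flow cytometry after staining with Hoechst dye and propidium iodide. The labels give neither the mutant allele nor the promoter of any Cre driver, and whether 2 libraries of a group are from different animals is not given. The p-values therefore rest on a spread between libraries that may be technical. A list of H3K36me3 ChIP-seq peaks was used for each group, with no replicate.

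Setd2 is the enzyme that places H3K36me3, a histone mark laid down over gene bodies during transcription. Spermatocytes in pachytene and diplotene are in meiotic prophase, when paired chromosomes recombine and much of the mRNA for later steps begins to be made. Round spermatids are the haploid cells that follow the meiotic divisions. They make the acrosome and the tail, transcribe the transition protein and protamine genes whose products later replace histones, and then shut transcription down.

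Sequencing depth, worked back from the deposited values, was 50.8 to 84.9 megareads per library, so that a single read per kilobase corresponds to 0.0118 to 0.0197 FPKM. Across genes, the 2 libraries of a group correlated at r = 0.992 to 0.995. Summed over its list, the level of spermatocyte markers was 288 to 292 FPKM in RS Setd2KO, 267 to 282 FPKM in RS WT, 750 to 811 FPKM in PD Setd2KO and 579 to 679 FPKM in PD WT libraries. Setd2 (chr9:110435101-110521137, plus strand, mm9) had 12.1 and 8.67 FPKM in RS Setd2KO libraries, against 5.24 and 5.58 FPKM in RS WT libraries. In PD it had 21.0 and 21.4 FPKM in Setd2KO libraries, against 21.2 and 19.1 FPKM in WT libraries. The deleted part of Setd2 is not given in the sources used here, and a value over the whole gene does not check it, so each genotype is as labelled. A set of 468 spermatid-enriched genes (RS WT mean of 20 FPKM or more, PD WT mean lower by 20-fold or more) had median levels, relative to RS cells of their own genotype, of 13.0% and 7.68% in the PD Setd2KO libraries and of 1.96% and 2.75% in the PD WT libraries. The choice of these genes by a low PD WT level holds the PD WT values down and not those of PD Setd2KO, so the contrast is in part fixed by it, and so is the share subtracted below. Genes with the reverse pattern, 24 in number, stood at 5.35% and 4.68% of the PD level in RS Setd2KO libraries and at 3.66% and 4.08% in RS WT libraries. In bulk samples, fewer cells of a type and less RNA per cell cannot be told apart.

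The effect of the mutation differed between the stages for 3845 genes, 34.7% of those tested (limma, Benjamini-Hochberg adjusted p under 0.05 for the difference of effects). The RS effect lay below the PD effect for 2981 genes (26.9%) and above it for 864 genes (7.8%). The split changed with the scaling of the libraries. The median gene was 0.02 higher in Setd2KO in RS and 0.19 higher in PD, on the log2 scale, and the median difference of effects was -0.16. After the median of all tested genes was subtracted in each library, 1760 genes lay below and 2515 above. Quantile normalization gave 2016 below and 2258 above, and upper-quartile scaling 2531 below and 1804 above. The call and its sign held under all 4 scalings for 2527 genes (22.8%), of which 1673 lay below and 854 above. Effects and differences of single genes and lists are therefore given relative to the median of all tested genes, as log2 values with the standard error, and their adjusted p-values are those of the test on the deposited scale. Each effect and the difference is centred on its own median, so the 2 printed effects need not subtract exactly to the printed difference.

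**Figure D1:**
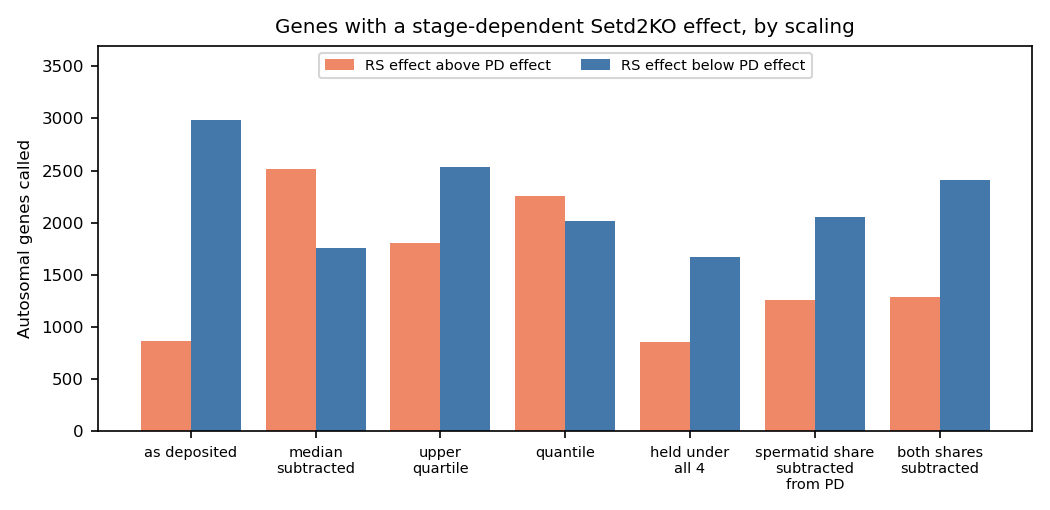
Number of autosomal genes (vertical axis) whose RS effect was called above (orange) or below (blue) the PD effect, under each scaling and after estimated shares of the other stage were subtracted. On the deposited scale 864 genes lay above and 2981 below, and 854 and 1673 kept their call under all 4 scalings.

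The stage-dependent genes fell into 4 main patterns. Changes called in RS and not in PD were the most frequent, with 1697 genes, 1183 lower and 514 higher in Setd2KO. Changes called in PD and not in RS numbered 1165 genes, 1028 higher and 137 lower. Opposite changes were called for 596 genes, of which 545 were lower in RS and higher in PD, and 51 higher in RS and lower in PD. The same direction with a different size was called for 204 genes, 129 higher and 75 lower in both stages, and the remaining 183 genes were called in neither stage alone. These numbers are to be read beside the calls for each stage over all tested genes, which were 20.4% higher and 22.1% lower in RS, and 28.7% higher and 6.5% lower in PD.

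A call in 1 stage only was not the same as stage dependence. Of 2880 genes called in RS and not in PD, 1697 had a called difference of effects, and of 2082 called in PD and not in RS, 1165 did. The class of a gene was more sensitive to scaling than the difference itself, and was kept under all 4 scalings by 339 genes of the RS-only class, 419 of the PD-only class, 85 of the same-direction class and 192 of the opposite class. Without the first RS WT library the opposite class held 274 genes, and without the second RS WT, the first RS Setd2KO or the first PD Setd2KO library it held 329, 327 and 311. Without the first RS Setd2KO library the RS-only class held 1047 genes, and without the second PD Setd2KO library the PD-only class held 772. The same-direction class held 109 and 128 genes without the first and the second RS WT library.

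**Figure D2:**
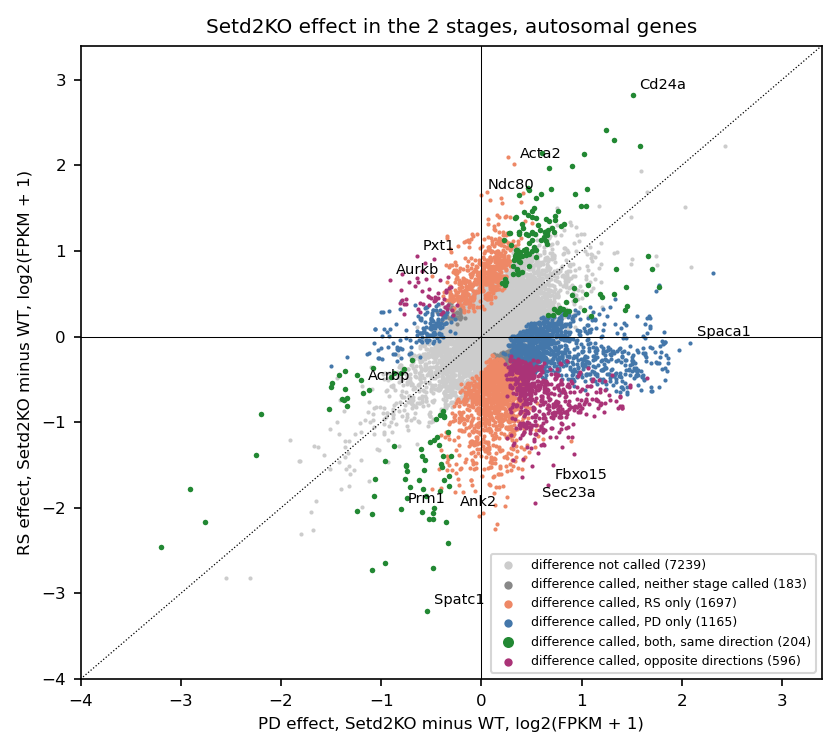
Setd2KO minus WT difference in RS (vertical axis) against that in PD (horizontal axis), log2(FPKM + 1) as deposited, for 11084 autosomal genes, coloured by class with the number of genes in each. Genes on the dotted diagonal had equal effects, and the opposite class lies mostly in the lower right quadrant, with 545 of its 596 genes lower in RS and higher in PD.

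Among genes lower in RS and higher in PD that met the naming rule, the difference of effects was largest for Sec23a, Fbxo15 and Pdilt. Sec23a (chr12:60059371-60113004, minus strand, mm9) encodes a coat subunit of the COPII vesicles that leave the endoplasmic reticulum. It had 1.19 and 1.28 FPKM in RS Setd2KO libraries, against 7.64 and 7.58 FPKM in RS WT libraries, and 27.1 and 28.0 FPKM in PD Setd2KO libraries, against 16.8 and 20.7 FPKM in PD WT libraries. The genotypes did not overlap in either stage, which the naming rule required. Its RS effect was -1.96 and its PD effect 0.35, with a difference of -2.33 ± 0.18 (adjusted p = 5.26e-05). Fbxo15 (chr18:85104417-85150784, plus strand, mm9), an F-box protein gene, had 0.402 and 0.344 FPKM in RS Setd2KO libraries, against 3.73 and 3.44 FPKM in RS WT libraries. In PD it had 10.12 and 10.96 FPKM in Setd2KO libraries, against 5.92 and 6.63 FPKM in WT libraries. The difference of effects was -2.25 ± 0.16 (adjusted p = 3.91e-05). Timm21 lies inside Fbxo15 on the other strand, and whether reads were counted by strand is not given in the sources used here, so the values of this pair are uncertain.

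Sec23a and Fbxo15 had lower values in RS WT than in PD WT libraries, and so had Eaf1 and Gml, the next in size among genes higher in PD Setd2KO with that WT pattern. Eaf1 (chr14:32308265-32323044, plus strand, mm9), a partner of the ELL elongation factors of RNA polymerase II, had 1.08 and 1.23 FPKM in RS Setd2KO libraries, against 1.85 and 2.01 FPKM in RS WT libraries. Its PD values were 9.25 and 10.1 FPKM in Setd2KO libraries, against 3.635 and 2.998 FPKM in WT libraries, and the difference of effects was -1.60 ± 0.16 (adjusted p = 0.000104). Gml (chr15:74643885-74649245, minus strand, mm9) encodes a GPI-anchored surface protein. It had 12.6 and 16.4 FPKM in RS Setd2KO libraries, against 31.2 and 25.8 FPKM in RS WT libraries, and 71.3 and 75.8 FPKM in PD Setd2KO libraries, against 41.7 and 41.9 FPKM in PD WT libraries, with a difference of -1.58 ± 0.22 (adjusted p = 0.000419). Among the 1573 stage-dependent genes that were higher in PD Setd2KO, alone or with lower RS values, 512 had a mean in RS WT that was not above the mean in PD WT.

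The other leading genes of the pattern were spermatid genes. Pdilt (chr7:126630101-126666996, minus strand, mm9), a testis-specific member of the protein disulfide isomerase family, had 41.4 and 62.2 FPKM in RS Setd2KO libraries, against 151 and 117 FPKM in RS WT libraries. It had 6.53 and 3.89 FPKM in PD Setd2KO libraries, against 1.54 and 3.02 FPKM in PD WT libraries. Its RS effect was -1.39, its PD effect 0.73 and their difference -2.14 ± 0.38 (adjusted p = 0.00135). Cypt9 and Cypt10, members of the cysteine-rich perinuclear theca family, were listed at the same interval (chr9:24429648-24430181, plus strand, mm9), which Dpy19l2 spans on the other strand, and had nearly the same values, so that their reads cannot be assigned to either. Cypt10 had 138 and 163 FPKM in RS Setd2KO libraries, against 292 and 244 FPKM in RS WT libraries, and 21.8 and 11.6 FPKM in PD Setd2KO libraries, against 4.77 and 6.09 FPKM in PD WT libraries.

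**Figure D3:**
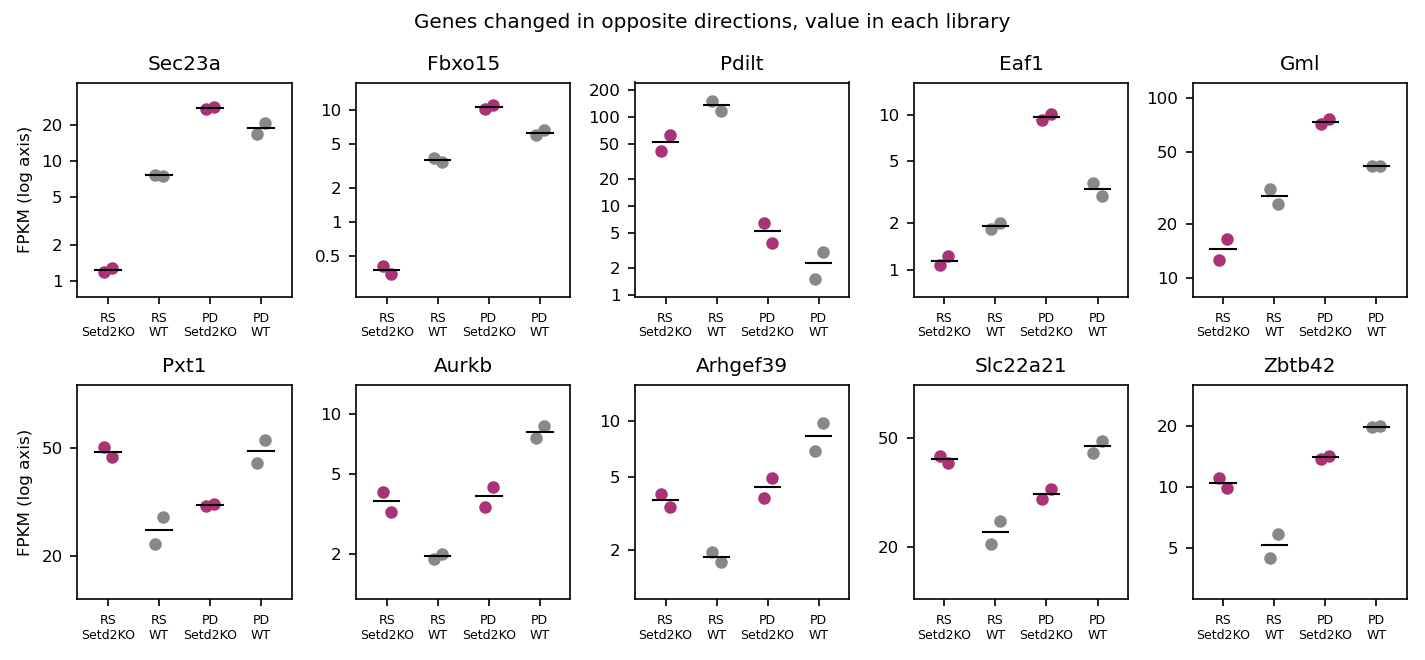
FPKM on a log axis in each library (points) with the group mean (line) for 10 genes changed in opposite directions, Setd2KO in purple and WT in grey. Sec23a, Fbxo15, Pdilt, Eaf1 and Gml were lower in RS and higher in PD, and Pxt1, Aurkb, Arhgef39, Slc22a21 and Zbtb42 were higher in RS and lower in PD. The naming rule required that the genotypes not overlap within a stage.

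The reverse pattern, higher in RS and lower in PD, was rarer, and 47 of its 51 genes kept their class under all 4 scalings. Pxt1 (chr17:29070931-29079207, minus strand, mm9), a testis-specific peroxisomal protein gene, had 50.5 and 46.5 FPKM in RS Setd2KO libraries, against 22.1 and 27.7 FPKM in RS WT libraries. In PD it had 30.4 and 31.0 FPKM in Setd2KO libraries, against 44.0 and 53.5 FPKM in WT libraries. Its RS effect was 0.93, its PD effect -0.84 and the difference of effects 1.74 ± 0.22 (adjusted p = 0.000611). Aurkb (chr11:68859139-68865166, plus strand, mm9) encodes the kinase of the chromosomal passenger complex, which corrects the attachment of chromosomes to the spindle. It had 4.07 and 3.26 FPKM in RS Setd2KO libraries, against 1.90 and 1.99 FPKM in RS WT libraries, and 3.44 and 4.35 FPKM in PD Setd2KO libraries, against 7.62 and 8.74 FPKM in PD WT libraries. The difference of effects was 1.72 ± 0.19 (adjusted p = 0.000335).

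Arhgef39, Slc22a21, which encodes a carnitine transporter, and Zbtb42, a zinc finger protein gene, completed the leading 5 of that pattern. Slc22a21 had 43.3 and 40.5 FPKM in RS Setd2KO libraries, against 20.53 and 24.82 FPKM in RS WT libraries, and 29.97 and 32.47 FPKM in PD Setd2KO libraries, against 44.3 and 49.0 FPKM in PD WT libraries. The 3 differences of effects were 1.68 ± 0.23 for Arhgef39, 1.58 ± 0.20 for Slc22a21 and 1.54 ± 0.20 for Zbtb42. In Setd2KO, Pxt1 and Slc22a21 had higher values in RS than in PD, whereas in WT all 5 had lower values in RS than in PD.

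Among genes that fell in RS and were not called in PD, the leading 4 were Znrf4, an E3 ubiquitin ligase of the endoplasmic reticulum, Noxred1, Ank2, which encodes the membrane adaptor ankyrin 2, and Timm21, a subunit of the mitochondrial inner membrane translocase. Noxred1 (chr12:88562073-88579551, minus strand, mm9) had 2.55 and 2.47 FPKM in RS Setd2KO libraries, against 15.0 and 15.1 FPKM in RS WT libraries. In PD its libraries overlapped, with 1.42 and 1.87 FPKM in Setd2KO and 1.18 and 1.57 FPKM in WT. The RS effect was -2.21 and the difference of effects -2.19 ± 0.18 (adjusted p = 5.26e-05). Ank2 had 4.78 and 8.16 FPKM in RS Setd2KO libraries, against 27.8 and 27.8 FPKM in RS WT libraries, and its difference of effects was -2.07 ± 0.26. Znrf4 (-2.23 ± 0.49) and Timm21 (-1.97 ± 0.23, uncertain as given with Fbxo15) had differences of like size.

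Genes that rose in RS and were not called in PD were led by Rnls, Ndc80, Gsn and Gem. Ndc80 (chr17:71845440-71876197, minus strand, mm9), the outer kinetochore subunit that binds microtubules, had 17.9 and 13.1 FPKM in RS Setd2KO libraries, against 4.44 and 3.98 FPKM in RS WT libraries. Its PD libraries stood at 14.2 and 15.1 FPKM in Setd2KO and at 13.6 and 15.9 FPKM in WT. In the mutant the RS and PD libraries overlapped, and in WT they did not. The difference of effects was 1.81 ± 0.22 (adjusted p = 0.00048). Gsn, which encodes the actin-severing protein gelsolin, gave 1.78 ± 0.22, though its interval differed between the tables, and Gem, a small GTPase gene, gave 1.68 ± 0.21. Rnls, the renalase gene, rested on unequal RS WT libraries of 3.28 and 14.4 FPKM, against 35.3 and 32.3 FPKM in RS Setd2KO libraries. Its difference of effects on the deposited scale was 1.835 (adjusted p = 0.0397), and was 0.91 without the first RS WT library. The call was lost without any 1 of 6 of the 8 libraries, with a pseudocount of 0.1 FPKM, with no filter and with no intensity trend.

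Among genes that rose in PD alone and met the naming rule, the difference of effects was largest for genes of spermatids: Tmem190 and Acrv1, whose products sit in the acrosome, Ropn1, a fibrous sheath protein gene, and Fam229a. Ropn1 had 147 and 210 FPKM in RS Setd2KO libraries, against 271 and 230 FPKM in RS WT libraries, and 23.6 and 14.8 FPKM in PD Setd2KO libraries, against 3.27 and 6.16 FPKM in PD WT libraries. Its RS effect was -0.52 (adjusted p = 0.156), its PD effect 1.64 (adjusted p = 0.000877) and their difference -2.19 ± 0.39 (adjusted p = 0.00132). The PD Setd2KO values of Tmem190, Acrv1 and Fam229a likewise stood well below the RS values, at 6.99 to 17.6 FPKM, and their differences of effects were -2.21 ± 0.44, -2.17 ± 0.36 and -2.19 ± 0.35. In each of these 4 genes the first PD Setd2KO library was higher than the second, the order in which the share of spermatid-enriched RNA given above also ran. All 4 are among the 468 genes that set that share. The like order, and the smaller differences after its subtraction, are therefore in part built in. After that share was subtracted from the PD libraries, the differences on the deposited scale were -0.68 for Acrv1 (adjusted p = 0.0468), -1.46 for Tmem190 (adjusted p = 0.0489), -1.28 for Ropn1 and -1.49 for Fam229a, against -2.32, -2.36, -2.34 and -2.34 without subtraction.

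Among genes that fell in PD alone and met the naming rule, the difference of effects was largest for Pdzd9, a PDZ domain protein gene, Gstt3, a glutathione S-transferase gene, Egflam and Lat2. Gstt3 (chr10:75236867-75244159, minus strand, mm9) had 11.3 and 11.1 FPKM in PD Setd2KO libraries, against 21.1 and 25.4 FPKM in PD WT libraries. In RS it had 11.1 and 10.6 FPKM in Setd2KO libraries, against 9.15 and 8.25 FPKM in WT libraries, and the RS effect of 0.27 was not called (adjusted p = 0.0979). The difference of effects was 1.43 ± 0.19 for Gstt3, 1.44 ± 0.27 for Pdzd9, and 1.37 for Egflam and Lat2, with standard errors of 0.22 and 0.17.

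Where both stages changed in the same direction, the change was larger in RS for the 3 leading genes in each direction. Spatc1 (chr15:76098519-76123002, plus strand, mm9), which encodes the centrosomal sperm protein speriolin, had 1.69 and 1.72 FPKM in RS Setd2KO libraries, against 24.5 and 23.1 FPKM in RS WT libraries. In PD it had 0.624 and 0.853 FPKM in Setd2KO libraries, against 1.498 and 1.542 FPKM in WT libraries. Its RS effect was -3.22, its PD effect -0.73 and the difference of effects -2.50 ± 0.15 (adjusted p = 2.51e-05). Tas1r1, a taste receptor subunit gene, and Alkbh7, a mitochondrial dioxygenase gene, also fell more in RS, with differences of -2.07 ± 0.22 and -1.53 ± 0.21. Cd24a (chr10:43298975-43304071, plus strand, mm9), a surface glycoprotein gene, had 16.6 and 16.6 FPKM in RS Setd2KO libraries, against 1.61 and 1.38 FPKM in RS WT libraries, and 3.38 and 2.82 FPKM in PD Setd2KO libraries, against 0.355 and 0.522 FPKM in PD WT libraries. Its effects were 2.81 in RS and 1.32 in PD, with a difference of 1.47 ± 0.16 (adjusted p = 0.000386). Myl9, a smooth muscle myosin light chain gene (1.69 ± 0.19), and Ppfibp2, a liprin gene (1.42 ± 0.19), rose more in RS as well.

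The title of the series names Acrbp1 and protamine genes, and Acrbp, Prm1 and Prm2 of the tables were each called lower in both stages. Prm1 (chr16:10796425-10796916, minus strand, mm9), a protamine gene, had 238 and 219 FPKM in RS Setd2KO libraries, against 941 and 912 FPKM in RS WT libraries, and 29.3 and 20.4 FPKM in PD Setd2KO libraries, against 43.6 and 43.0 FPKM in PD WT libraries. Its effects were -2.03 in RS and -0.99 in PD, with a difference of -1.06 ± 0.25 (adjusted p = 0.00374). For Prm2 the difference of -0.64 ± 0.30 was not called (adjusted p = 0.0599). Tnp1 and Tnp2, the transition protein genes, fell in RS (-1.79 for each) and were not called in PD, with differences of -1.13 ± 0.27 and -1.21 ± 0.26. After the spermatid share was subtracted from the PD libraries, the differences of Prm1, Prm2, Tnp1 and Tnp2 turned positive on the deposited scale, at 1.48, 2.58, 1.86 and 1.61 (adjusted p = 0.0874, 0.00259, 0.00362 and 0.0145). For these genes the share exceeded PD Setd2KO values, which were then set to 0. The signs and adjusted p-values after subtraction are therefore in part fixed by that step.

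Acrbp (chr6:124999945-125004211, plus strand, mm9), whose product binds proacrosin in the acrosome, was 1 of 2 acrosome genes called lower in PD, against 13 called higher, of 24 tested. Over all tested genes, 6.5% were called lower in PD and 28.7% higher. It had 190 and 206 FPKM in RS Setd2KO libraries, against 310 and 283 FPKM in RS WT libraries, and 76.6 and 72.1 FPKM in PD Setd2KO libraries, against 152 and 192 FPKM in PD WT libraries. The effects were -0.60 in RS and -1.38 in PD, and the difference of 0.77 ± 0.23 was not called on the deposited scale (adjusted p = 0.0625). It was called after median subtraction, upper-quartile scaling and quantile normalization, at 0.88, 0.78 and 0.70 on the log2 scale (adjusted p = 0.0056, 0.00407 and 0.00346).

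Most lists of spermatid functions held more members with an RS effect below the PD effect than the 26.9% of all tested genes, the flagellum list being an exception with 9 of 34 and a median difference of 0.15. Of 26 tested genes of sperm-egg binding and fusion, 19 lay below and 1 above (5 above without the first PD WT library), and the median difference was -1.27, against 0.0058 for all tested autosomal genes. For the acrosome the numbers were 12 below and 1 above of 24 (0 to 5 above when any library was left out), with a median of -0.92, and for head shaping and the manchette 10 below and 2 above of 21, with a median of -0.32 (7 to 13 below and 0 to 3 above when any library was left out). CatSper and sperm ion transport genes gave 9 below and 2 above of 18, with a median of -0.11. Post-meiotic transcription and mRNA storage genes gave 9 below and 0 above of 21 by limma (0 above at an unadjusted p under 0.05), with a median of -0.036, and 5 lay above without the first PD WT library or after quantile normalization. The members of these lists rose in PD, fell in RS or did both: of the sperm-egg genes, 14 were called higher in PD and 13 lower in RS, beside 28.7% and 22.1% of all tested genes.

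Within these lists single genes differed in which stage moved. Tmem95, a sperm membrane protein needed for fusion with the egg, had 2.66 and 5.33 FPKM in RS Setd2KO libraries, against 17.56 and 18.04 FPKM in RS WT libraries. In PD it had 0.426 and 0.298 FPKM in Setd2KO libraries, against 0.221 and 0.255 FPKM in WT libraries, a difference that was not called (adjusted p = 0.61). Its difference of effects was -1.95 ± 0.28 (adjusted p = 0.000472). Catsper1, a pore subunit of the sperm calcium channel, fell in RS (-1.08) and rose in PD (0.65), whereas Efcab9, an auxiliary subunit of that channel, rose in PD (1.27) and its RS effect of -0.66 was not called (adjusted p = 0.0828). Sun5, which anchors the head to the tail, fell in RS (-0.70) and rose in PD (1.08). Tssk4, a testis-specific kinase gene, rose in PD (1.26, difference -1.89 ± 0.37). Spag6, an axonemal central pair gene, also rose in PD (1.61, difference -2.03 ± 0.41), in the flagellum list, where 4 members lay above (14 below without the second PD WT library, and 1 to 9 above when any library was left out).

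These counts were smaller after the estimated share of spermatid-enriched RNA was subtracted from the PD libraries. That share was set by spermatid-enriched genes, some of them members of these lists, and the cause of the counts was not tested. After the spermatid share was subtracted there, 9 sperm-egg genes, 6 acrosome genes, 3 head-shaping genes, 3 CatSper genes and 4 post-meiotic regulator genes remained below. Of the 12 round spermatid markers, 11 lay below as deposited and 3 after subtraction, and of the 18 elongating spermatid markers 15 as deposited and 1 after it. Named genes whose call ended with that subtraction were Prm3, Fam209, Hils1 (which overlaps Sgca), H1fnt, Fhl5, Kif17, Cabyr, Aldoart2, Catsper4, Spag4, Spatc1l, Hspa1l, Asns, Tex33, Spaca1, Odf3 and Akap3. The differences of Spz1 and Gapdhs were close to 0 after it. Spaca1, an acrosomal membrane protein gene, had 26.9 and 13.8 FPKM in PD Setd2KO libraries, against 2.92 and 4.85 FPKM in PD WT libraries, with RS values of 158 and 200 FPKM in Setd2KO and 194 and 180 FPKM in WT. Summed over the round spermatid markers, the level was 136.5 to 219.8 FPKM in PD Setd2KO libraries and 78.3 to 96.55 FPKM in PD WT libraries, against 1252 to 1633 FPKM in RS Setd2KO and 1859 to 2007 FPKM in RS WT libraries.

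The difference of effects varied with the WT levels in the 2 stages. Of 1193 genes at least 2 log2 units higher in RS WT than in PD WT, 1030 lay below (86.3%) and 0 above (1085 and 0 at an unadjusted p under 0.05), and 512 remained below after subtraction of the spermatid share. Of 599 genes at least 2 units higher in PD WT, 65 lay below and 89 above, and of the 9292 genes between, 1886 lay below and 775 above. These bins were cut from WT libraries that also enter the difference of effects, so the counts are a description.

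**Figure D4:**
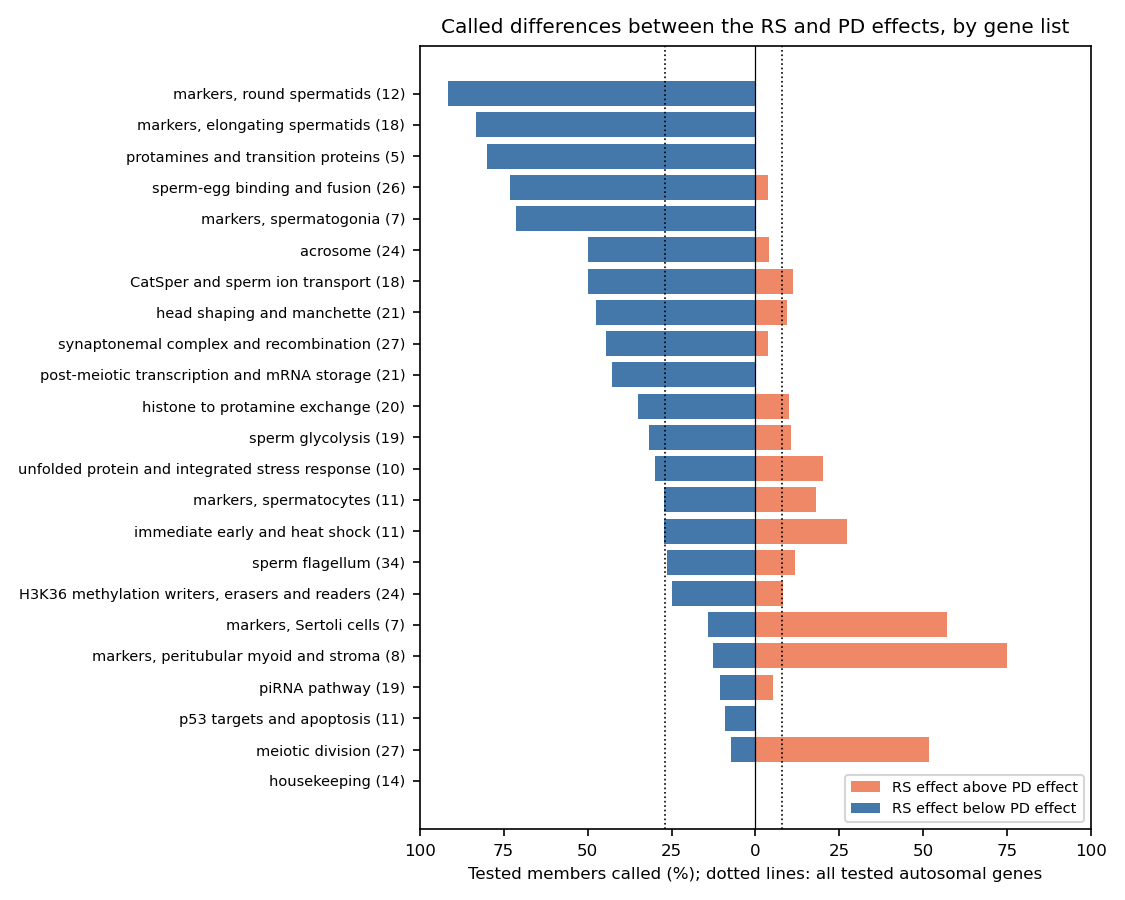
Share of tested members whose RS effect was called above (orange, to the right) or below (blue, to the left) the PD effect, for each list with at least 5 tested genes (number of tested genes in parentheses). Dotted lines mark 7.8% above and 26.9% below for all tested autosomal genes, and meiotic division stands among the lists with most members above, 14 of 27.

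Meiotic division genes ran the other way. Of 27 tested, 14 had an RS effect above the PD effect (7.8% of all tested genes) and 2 below, and the median difference was 0.84. In RS, 16 were called higher and 3 lower, beside 20.4% and 22.1% of all tested genes. In PD, 4 were called higher and 5 lower, beside 28.7% and 6.5%. Cdk1, the cyclin-dependent kinase that drives entry into division, had 8.97 and 7.03 FPKM in RS Setd2KO libraries, against 2.38 and 2.83 FPKM in RS WT libraries, while its PD libraries overlapped, at 11.3 and 12.3 FPKM in Setd2KO and 9.72 and 12.9 FPKM in WT. Pttg1, the securin gene, had 55.6 and 55.3 FPKM in RS Setd2KO libraries, against 25.4 and 22.8 FPKM in RS WT libraries, with a difference of effects of 1.41 ± 0.20 (adjusted p = 0.00125). Opposite changes were called for Aurkb, described above, and for Espl1, the gene of the cohesin-cleaving protease separase, named after its values were seen. Espl1 had 22.6 and 19.4 FPKM in RS Setd2KO libraries, against 15.4 and 14.8 FPKM in RS WT libraries, and 10.6 and 10.8 FPKM in PD Setd2KO libraries, against 17.5 and 20.0 FPKM in PD WT libraries. The count above was 17 after subtraction of the spermatid share, and it fell to 7, 8 and 9 without the first RS Setd2KO, the first RS WT and the second PD Setd2KO library. With the other stage's share subtracted in both stages, a setting added after the data were seen, 17 lay above and 3 below, and the deposited-scale differences were 1.42 for Cdk1, 1.46 for Pttg1 and 1.79 for Aurkb, against 1.25, 1.25 and 1.57 without subtraction. All 3 were called in both.

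Of 27 synaptonemal complex and recombination genes, 12 lay below and 1 above, beside 26.9% and 7.8% of all tested genes. After median subtraction 7 lay below and 4 above, and 8 kept their call under all 4 scalings. Without the second PD Setd2KO or the first RS Setd2KO library, 7 lay below. Syce2, a central element gene that overlaps Gcdh on the other strand, had 12.9 and 13.1 FPKM in RS Setd2KO libraries, against 41.5 and 36.5 FPKM in RS WT libraries, and was not called in PD (difference -1.54 ± 0.20). Rec8, the meiotic cohesin gene, fell in RS (-1.17, difference -1.56 ± 0.29), and Tex15, required for recombination, rose in PD (0.97, difference -1.47 ± 0.28). Mybl1, the transcription factor that drives pachytene genes, rose in RS, with 18.69 and 14.02 FPKM in Setd2KO libraries, against 5.05 and 5.83 FPKM in WT libraries, and not in PD (difference 1.42 ± 0.23). Asz1 and Tdrkh of the piRNA pathway rose in PD only, with differences of -0.88 ± 0.18 and -0.74 ± 0.17, among 1 gene above and 2 below of 19 (1 to 4 above and 2 to 4 below when any library was left out, and 5 above and 2 below after median subtraction).

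Among writers, erasers and readers of H3K36 methylation, 2 of 24 lay above and 6 below, beside 7.8% and 26.9% of all tested genes. After median subtraction 6 lay above and 2 below, and after quantile normalization 4 and 2, with 0 to 2 above and 3 to 5 below when any library was left out, and 4 calls held under all 4 scalings. Setd2 rose in RS only (0.80, difference 0.90 ± 0.22, adjusted p = 0.0211), a call that was lost without 5 of the 8 libraries in turn. Smyd2, a lysine methyltransferase gene, fell in RS (-0.52) and rose in PD (0.43). Phf1, a reader of the mark, rose in RS (0.37) and fell in PD (-0.58), and its call was lost without the first PD Setd2KO or the first RS Setd2KO library. In the glycolysis list (2 above, 6 below of 19, and 4 and 5 after median subtraction), Slc2a3, a glucose transporter gene, rose in RS only, with 216 and 176 FPKM in Setd2KO libraries, against 80.3 and 94.9 FPKM in WT libraries, and 544 and 575 FPKM in PD Setd2KO libraries, against 645 and 783 FPKM in PD WT libraries. Of 20 histone exchange genes, 2 lay above and 7 below (4 and 6 after median subtraction), among them Cdyl, a chromodomain protein gene, which fell in RS (-0.66) and rose in PD (0.74). H2-K1, a class I antigen gene, fell more in PD (-2.44) than in RS (-1.39), and was the single gene above of 4 tested, a call that was lost with a pseudocount of 0.1 FPKM.

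Counts for stress genes changed with the scaling, and stand beside 7.8% above and 26.9% below among all tested genes as deposited. Immediate early and heat shock genes gave 3 above and 3 below of 11 as deposited, 5 above and 1 below after median subtraction or quantile normalization, and 3 and 0 after subtraction of the spermatid share. Without the first RS WT library 1 lay below. Fos and Jun, which encode AP-1 subunits, had differences of 0.83 ± 0.18 and 0.79 ± 0.15, and the call for Fos was lost without the first PD WT or the second RS WT library, with a pseudocount of 0.1 FPKM and with no filter. Of 10 genes of the integrated stress and unfolded protein responses 2 lay above (1 to 4 when any library was left out), among them the sensor gene Ern1 (0.85 ± 0.14), and 3 below (1 to 3 when any library was left out; 4 above and 1 below after median subtraction), among them Atf4 (-0.55 ± 0.22), whose call was lost without 4 of the 8 libraries in turn and after median subtraction. Of 11 genes of the p53 list, Perp lay below (-0.51 ± 0.10) and 0 above by limma, also at an unadjusted p under 0.05, while 3 lay above after median subtraction and 2 after quantile normalization. No housekeeping gene of 14 was called in either direction by limma on the deposited scale, and 0 had an unadjusted p under 0.05, against 34.7% of all tested genes called. After median subtraction 2 lay above, without the first PD WT library 3 lay above, and without the second PD WT library 5 lay below.

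Markers of myoid, stromal and Sertoli cells mostly had an RS effect above the PD effect. A marker was tested only if its mean reached 1 FPKM in any group, so members could enter through the group where they were high. These counts are therefore in part fixed by the filter. Of 13 listed markers of peritubular myoid and stromal cells 8 were tested, and of 15 listed Sertoli cell markers 7. Of the 8 tested markers of peritubular myoid and stromal cells, 6 lay above and 1 below, beside 7.8% and 26.9% of all tested genes. Acta2, smooth muscle actin, had 4.69 and 4.55 FPKM in RS Setd2KO libraries, against 0.137 and 0.704 FPKM in RS WT libraries, and 0.502 and 1.02 FPKM in PD Setd2KO libraries, against 0.357 and 0.436 FPKM in PD WT libraries (difference 1.85 ± 0.25). Acta2 passed the filter through RS Setd2KO alone, so its place above was in part fixed. Col1a2, a collagen gene, gave 1.43 ± 0.22. Actg2, also on that list, was the member below, with 22.4 and 21.8 FPKM in RS Setd2KO libraries, against 74.98 and 77.08 FPKM in RS WT libraries. It dominated the summed level of the list, which was 46.0 to 47.0 FPKM in RS Setd2KO and 81.5 to 85.9 FPKM in RS WT libraries, against 11.8 to 13.5 FPKM in PD Setd2KO and 11.8 to 12.45 FPKM in PD WT libraries. Of 7 Sertoli cell markers 4 lay above and 1 below, with 1 above without the first RS Setd2KO or the first RS WT library and 2 above without the first PD Setd2KO or the second PD WT library. Clu and Cst12, 2 of the members above, had differences of 0.85 ± 0.20 and 0.83 ± 0.20, calls that were lost without 4 and 3 of the 8 libraries in turn, with a pseudocount of 0.1 FPKM (adjusted p = 0.0581 and 0.13) and with no filter. The sum of these markers was 32.8 to 36.9 FPKM in RS Setd2KO, 19.8 to 23.0 FPKM in RS WT, 17.75 to 19.1 FPKM in PD Setd2KO and 11.8 to 12.7 FPKM in PD WT libraries. Myl9 and Gsn, named above, are also genes of smooth muscle. The part of somatic cells in their values, and in those of Actg2, was not tested.

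Among other markers, the spermatogonial list had 5 below of 7, with 2 to 4 below when any library was left out and 2 after median subtraction. Stra8, the gene of meiotic entry, rose in both stages and more in PD (1.25) than in RS (0.56), though the call of its difference was lost with a pseudocount of 0.1 FPKM, and Uchl1 rose in PD (0.55) and fell in RS (-0.78). Of the 3 tested Leydig cell markers, from 9 listed, 0 were called by limma on the deposited scale, and 0 at an unadjusted p under 0.05. After median subtraction 1 of them lay above. Aif1, on the macrophage list, was at 89.5 and 123 FPKM in RS Setd2KO libraries, against 222 and 204 FPKM in RS WT libraries. It made up most of the sum of its list, of which 3 of 12 members were tested. Its level is therefore not read as that of macrophages, and its cell of origin was not tested. Vwf lay below among 2 tested markers of endothelium and erythrocytes. Spermatocyte markers gave 2 above and 3 below of 11, and 4 and 2 after median subtraction. These marker counts are to be read beside 7.8% above and 26.9% below among all tested genes.

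WT H3K36me3 peaks, which were not used to class the genes, lay over a smaller share of stage-dependent genes than of the other genes, and the intervals of the shares did not overlap. In RS WT cells 60.4% of stage-dependent genes had a peak (exact 95% binomial interval 58.8% to 62.0%), against 80.2% (79.3% to 81.1%) of genes whose effects were not called different. In PD WT cells the shares were 60.9% (59.4% to 62.5%) and 83.4% (82.5% to 84.3%). Setd2KO peaks were rarer and ran the other way. In RS they lay over 6.68% (5.92% to 7.52%) of stage-dependent genes, against 4.95% (4.46% to 5.47%) of genes not called different, and in PD over 3.04% (2.52% to 3.64%), against 1.58% (1.30% to 1.89%). Intervals cover counting over genes only, since each group had 1 peak list. The sets were not matched for level. Median WT levels in RS and PD were 4.87 and 8.55 FPKM for genes not called different. They were 5.03 and 1.94 FPKM for genes lower in RS only, 6.70 and 2.04 FPKM for genes higher in PD only, and 2.32 and 5.92 FPKM for genes higher in RS only. The part of WT level in the shares was not tested.

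By class, genes higher in both stages had the lowest, 26.4% in RS WT (18.99% to 34.84%) and 24.0% in PD WT (17.0% to 32.3%). Their median WT levels were low, at 0.57 FPKM in RS and 0.44 FPKM in PD. These lie below the filter of 1 FPKM, while the Setd2KO medians were 2.64 FPKM in RS and 1.31 FPKM in PD. Genes low in WT could thus enter this class through Setd2KO, and the part of that choice in the low shares was not tested. Genes lower in RS and higher in PD had 54.9% and 55.6%, while genes higher in RS and lower in PD had 90.2% (78.6% to 96.7%) and 84.3% (71.4% to 93.0%). Genes lower in PD only had 84.7% in both lists, against 58.8% in RS WT and 58.4% in PD WT for genes higher in PD only. Among the named genes, WT peaks covered 98.65% of Sec23a in RS and 94.85% in PD, 97.5% and 98.3% of Eaf1, and all of Aurkb, Prm1 and Acrbp in both stages. No WT peak lay over Pdilt, Tmem190, Ropn1, Znrf4, Ank2, Cd24a or Myl9 in either stage, and Setd2KO peaks covered none of the genes named in this paragraph.

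**Figure D5:**
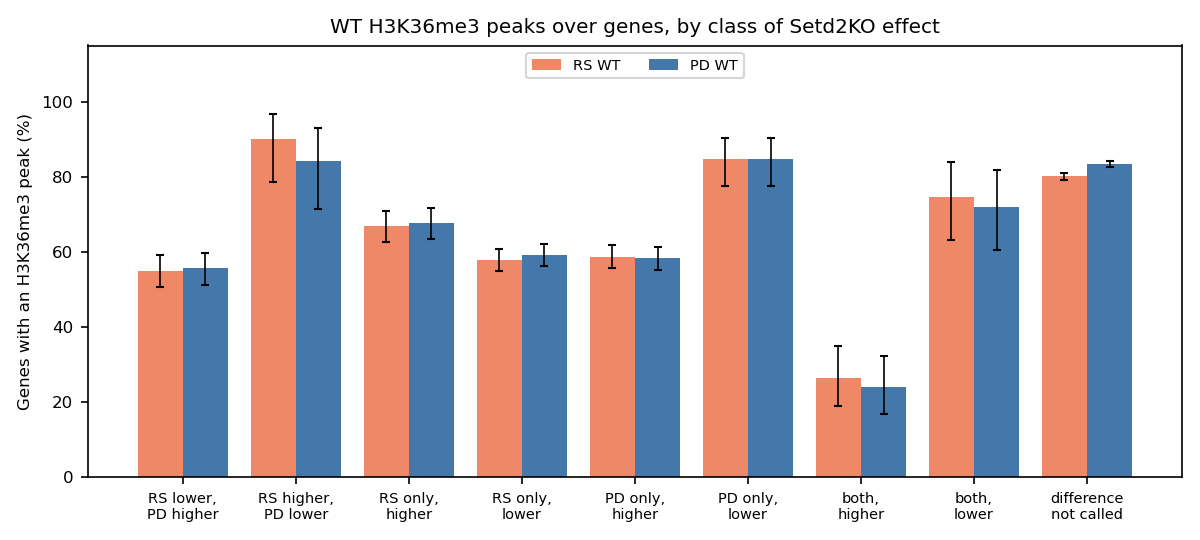
Share of genes with an H3K36me3 peak over at least 1 base in RS WT (orange) and PD WT (blue) cells, by class of Setd2KO effect, with exact 95% binomial intervals. Genes higher in both stages had a peak in 26.4% (RS WT) and 24.0% (PD WT) of cases, and genes with no called difference in 80.2% and 83.4%. Median WT levels in RS and PD were 0.57 and 0.44 FPKM for the former and 4.87 and 8.55 FPKM for the latter. Genes of the former class could pass the filter of 1 FPKM through Setd2KO alone.

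Promoters from RefSeq (GRCm38.p6, 250 bases before to 50 after the start) were found for 8602 of the 11084 genes and were searched for TGACGTCA, the palindromic cAMP response element known as a site of the spermatid activator CREM. Both strands read alike for this motif. It was present in 3.87% of these promoters and in 3.29% of all 10929 promoters of the table. Genes lower in RS and higher in PD had it in 25 of 409 (6.11%), the highest share of any class. All stage-dependent genes had it in 3.88% and genes with no called difference in 3.87%. Other classes included 3.93% for genes higher in PD only, 3.71% for genes lower in RS only and 0 of 56 for genes lower in both stages. The 4 named genes with a match and a single start are shown because they come from different classes: Kif17, a kinesin gene that acts with CREM's coactivator (lower in RS, higher in PD), Spag4, a SUN domain protein gene (higher in PD only), Znrf4 (lower in RS only) and Ndc80 (higher in RS only). The coordinates printed with them are of GRCm38.p6. Capitals mark the motif, which begins 86, 37 and 69 bases before the start in Kif17, Spag4 and Znrf4 and at the start base in Ndc80.
Kif17 (chr4:138262001-138262300, plus strand): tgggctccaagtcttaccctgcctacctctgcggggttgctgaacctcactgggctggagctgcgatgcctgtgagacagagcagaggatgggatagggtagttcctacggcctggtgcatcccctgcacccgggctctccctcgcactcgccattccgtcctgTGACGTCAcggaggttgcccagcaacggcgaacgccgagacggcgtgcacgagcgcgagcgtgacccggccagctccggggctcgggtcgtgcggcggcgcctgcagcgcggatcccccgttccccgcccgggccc
Spag4 (chr2:156064963-156065262, plus strand): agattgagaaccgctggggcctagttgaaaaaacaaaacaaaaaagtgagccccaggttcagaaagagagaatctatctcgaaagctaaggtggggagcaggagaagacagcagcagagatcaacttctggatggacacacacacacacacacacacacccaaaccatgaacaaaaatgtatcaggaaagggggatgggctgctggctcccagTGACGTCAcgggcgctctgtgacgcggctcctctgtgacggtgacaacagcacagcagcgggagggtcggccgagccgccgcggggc
Znrf4 (chr17:56512434-56512733, minus strand): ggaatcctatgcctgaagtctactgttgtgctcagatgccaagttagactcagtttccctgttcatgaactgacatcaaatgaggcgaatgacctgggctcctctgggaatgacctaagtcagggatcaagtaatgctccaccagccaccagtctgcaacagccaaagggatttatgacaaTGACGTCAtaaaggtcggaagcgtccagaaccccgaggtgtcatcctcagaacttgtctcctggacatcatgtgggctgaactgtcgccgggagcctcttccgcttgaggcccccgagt
Ndc80 (chr17:71526808-71527107, minus strand): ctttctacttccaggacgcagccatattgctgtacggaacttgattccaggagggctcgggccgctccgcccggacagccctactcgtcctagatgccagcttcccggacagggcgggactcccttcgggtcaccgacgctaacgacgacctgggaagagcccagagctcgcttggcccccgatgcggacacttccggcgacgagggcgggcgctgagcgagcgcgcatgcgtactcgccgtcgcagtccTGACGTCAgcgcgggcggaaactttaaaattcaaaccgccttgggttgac
These genes were chosen after their promoters were read, and a match describes letters and not binding. Kif17 had 38.9 and 55.0 FPKM in RS Setd2KO libraries, against 71.0 and 68.2 FPKM in RS WT libraries, and 5.75 and 3.97 FPKM in PD Setd2KO libraries, against 1.59 and 2.02 FPKM in PD WT libraries (difference -1.47 ± 0.27). Znrf4 had 33.1 and 21.1 FPKM in RS Setd2KO libraries, against 154 and 108 FPKM in RS WT libraries.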

How the data were processed

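Gene expression came as tables of FPKM, fragments per kilobase per megareads, made by the authors with CASAVA, TopHat2, Cufflinks and Cuffdiff on mm9, per the submitters' processing notes, which give no versions. RNA, per the labels, was polyadenylated and libraries were directional. H3K36me3 peaks were deposited by the authors as 1 list per group with a score for each peak. For ChIP-seq those notes list Bowtie, bedtools and CASAVA, the peaks carry MACS names, and use of the added spike-in chromatin is not given in the sources used here. The members, gene lists and naming rule were chosen with earlier results of these data known.

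Values of log2(FPKM + 1), with a pseudocount of 1 FPKM, were fitted with limma 3.58.1 in R 4.3.3, with an intensity trend and 1 mean per group, over 11452 genes whose mean reached 1 FPKM in any group (368 on X or Y). The fit had 4 residual and 6.92 prior degrees of freedom. Calls used an adjusted p under 0.05 (Benjamini-Hochberg, all tested genes), and a class used the calls of the difference and of both effects. Fold changes on this scale understate those of low genes. The median standard error of a difference was 0.18. The fit was tested on simulated data. Depth was recovered from olfactory receptor genes spanning under 1100 bases. Values were whole multiples of 1 read within 0.02 reads for 99.5% to 100% of those genes with few reads. The genes at 1 read set the depth, so this match is in part built in. Intervals differed between the tables for 424 tested autosomal genes.

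Besides Setd2, Acrbp, Prm1, Prm2, Tnp1 and Tnp2, genes were named by the size of the difference of effects within each class, among those of at least 5 FPKM called on the deposited scale and after median subtraction, with both Setd2KO libraries outside the WT range in each changed stage. Up to 3 called members of each list were added. Genes known by clone numbers, or sharing all values with another gene, were passed over. Miwi, Fsip2, Dcst2 and Sgol2 had no match. Among the named genes, 7 overlap another tested gene. A gene had a peak when at least 1 base overlapped. Intervals are exact (Clopper-Pearson, 95%, scipy 1.17.1). Alternatives were other scalings, pseudocounts, filters and variance models, a replicate block, subtraction of the other stage's estimated share, and leaving out each library. Subtraction in both stages and the count held under all 4 scalings were added after seeing the data. Input libraries were not used here.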

Additional observations from a re-analysis of the deposited data

Results flagged for a closer look

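The test of the difference between the RS and PD effects (limma on all tested genes) marked 864 genes with an RS effect above the PD effect and 2981 with an RS effect below it, and all but 2 of the named genes. The values, relative to the median of all tested genes on the log2 scale, follow by class. For genes lower in RS and higher in PD, the difference was -2.33 for Sec23a, -2.25 for Fbxo15, -2.14 for Pdilt, -2.08 for Cypt10, -2.08 for Cypt9, -1.80 for Sun5, -1.76 for Catsper1, -1.71 for Odf3, -1.69 for Prm3, -1.67 for Aif1, -1.60 for Eaf1 and -1.58 for Fhl5. In the same class it was -1.58 for Gml, -1.49 for H1fnt, -1.47 for Kif17, -1.47 for Spz1, -1.42 for Cdyl, -1.35 for Uchl1 and -0.97 for Smyd2. For genes higher in RS and lower in PD, it was 1.74 for Pxt1, 1.72 for Aurkb, 1.68 for Arhgef39, 1.58 for Slc22a21, 1.54 for Zbtb42 and 0.93 for Phf1. For genes lower in RS and not called in PD, it was -2.23 for Znrf4, -2.19 for Noxred1, -2.07 for Ank2, -1.97 for Timm21, -1.95 for Tmem95, -1.80 for Actg2, -1.56 for Rec8, -1.54 for Syce2, -1.21 for Tnp2, -1.13 for Tnp1, -1.12 for Hspa1l and -0.52 for Vwf. For genes higher in RS and not called in PD, it was 1.99 for Rnls, 1.85 for Acta2, 1.81 for Ndc80, 1.78 for Gsn, 1.68 for Gem, 1.65 for Slc2a3, 1.43 for Col1a2, 1.42 for Mybl1, 1.41 for Pttg1, 1.40 for Cdk1, 0.90 for Setd2 and 0.85 for Clu. In the same class it was 0.85 for Ern1, 0.83 for Cst12 and 0.79 for Jun. For genes higher in PD and not called in RS, it was -2.21 for Tmem190, -2.19 for Ropn1, -2.19 for Fam229a, -2.17 for Acrv1, -2.10 for Tex33, -2.03 for Spag6, -2.01 for Fam209, -2.001 for Spaca1, -1.95 for Efcab9, -1.91 for Cabyr, -1.89 for Tssk4 and -1.83 for Hils1. In the same class it was -1.81 for Spag4, -1.70 for Aldoart2, -1.69 for Catsper4, -1.68 for Akap3, -1.65 for Spatc1l, -1.47 for Tex15, -1.29 for Gapdhs, -1.27 for Asns, -0.88 for Asz1, -0.74 for Tdrkh, -0.69 for Sycp1 and -0.55 for Atf4. In the same class it was -0.51 for Perp, -0.48 for Tjp1 and -0.40 for Sohlh2. For genes lower in PD and not called in RS, it was 1.44 for Pdzd9, 1.43 for Gstt3, 1.37 for Egflam and 1.37 for Lat2. For genes changed the same way in both stages with a lower RS effect, it was -2.50 for Spatc1, -2.07 for Tas1r1, -1.53 for Alkbh7, -1.06 for Prm1 and -0.72 for Stra8. For genes changed the same way in both stages with a higher RS effect, it was 1.69 for Myl9, 1.47 for Cd24a, 1.42 for Ppfibp2, 1.03 for H2-K1 and 0.83 for Fos.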

How the results depend on the processing

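Counts are given on the deposited scale unless said. The 864 genes with an RS effect above the PD effect became 2515, 1804 and 2258 under median subtraction, upper-quartile scaling and quantile normalization, 460 with a minimum of 5 FPKM and 1444 with no filter. The 2981 below became 1760 under median subtraction, 1881 with a minimum of 5 FPKM and 1673 when held under all 4 scalings. With a minimum of 5 FPKM, the PD-only, RS-only and same-direction classes held 768, 964 and 84 genes, and with no filter the RS-only class held 2614. With the spermatid share subtracted from PD, the PD-only and opposite classes held 680 and 299 genes, and with shares subtracted in both stages 754 and 366. Held under all 4 scalings were 419 PD-only, 339 RS-only, 85 same-direction and 192 opposite genes. Leaving out 1 library gave 498 to 1566 above, 2230 to 3423 below, 772 to 1338 PD-only, 1047 to 2291 RS-only, 109 to 250 same-direction and 274 to 707 opposite genes. The lowest count above was without the first RS WT library and the highest lacked the first PD WT library. It was 569 or 546 when the first PD Setd2KO or RS Setd2KO library was left out. The cause of these moves was not tested.

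Stage-dependent genes with a WT peak were 56.8% (RS) and 57.2% (PD) for peaks above the lower quartile of the score, and 39.5% and 41.25% where at least 50% of the gene had to be covered. Subtracting the spermatid share from PD, or both shares, reversed 6 named differences on the deposited scale: 1.48 and 1.47 for Prm1, 2.58 and 2.58 for Prm2, 1.86 and 1.86 for Tnp1, 1.61 and 1.605 for Tnp2, 0.0075 and 0.0011 for Spz1, and 0.051 and 0.045 for Gapdhs. Those of Prm1, Prm2, Tnp1 and Tnp2 rest in part on PD Setd2KO values set to 0 because the share exceeded them. Of 93 called differences of named genes, 59 kept their call and sign under every setting run, 11 lost it without at least 1 library and 27 under at least 1 other setting.

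The labels do not say whether equal replicate numbers pair the libraries. Same-numbered libraries deviated together at r = -0.31 to 0.07. With 2 libraries per group this cannot settle it, since other differences between libraries could mask a pairing. A replicate block gave 803 above and 2870 below and changed no named call. With 2 libraries per group, a lone library is assumed to vary like the other groups when its replicate is left out. Low genes near 1 FPKM are limited by depth and by the pseudocount.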
